A study of Caenorhabditis elegans with 12 samples.

Results

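The wild-type Caenorhabditis elegans strain N2, the laboratory standard of this nematode, was the common partner of 3 strains on 2-colour NCode microRNA arrays, and its own microRNA signal at larval stage 4 is described here. The N2 channel was taken as the first of the scanner's pair of signals, on every distinct array, for all probes named as C. elegans microRNAs. The 12 deposited scanner files held 11 distinct arrays, because the files of cat-1 replicates 3 and 4 were identical and were counted once. The N2 channels were therefore 11 of the 22 distinct channels, and each was read on 114 C. elegans probes with 3 spots per probe, 342 of the 4608 spots of an array.

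The arrays fell into sets by the strain hybridised together with N2. There were 3 distinct arrays with the cat-1 mutant CB1111 (allele e1111), a loss of function of the transporter that loads monoamines into vesicles. There were 4 with a strain transgenic for human alpha-synuclein A53T, a form found in familial Parkinson's disease, and 4 with the pdr-1 mutant VC1024 (allele gk448), a loss of function of the worm parkin gene. The sources used here do not give the promoter that drives the transgene. All worms, N2 included, were kept at 20 °C on OP50 bacteria and synchronized, and RNA shorter than 200 nt was taken at larval stage 4. The labels give Alexa Fluor 3 for N2 RNA and Alexa Fluor 5 for strain RNA throughout, so strain and dye cannot be told apart. Per the series' design text, N2 RNA came from 4 independent preparations, but the sources used here do not say which of them lay on which array. The 11 N2 channels are thus not 11 independent worm populations, and p-values measure the spread between arrays, which may be technical.

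MicroRNAs are short RNAs that guide a repressor complex to partly complementary messenger RNAs, mostly through the bases of a seed near their 5′ end, and microRNAs with the same seed form families. C. elegans is where they were found, through lin-4 and let-7, which time the fates of epidermal cells from one larval stage to the next. let-7 rises late in larval life and directs the passage to the adult, while the miR-35 family acts in embryos and oocytes, miR-1 in muscle and lsy-6 in a single taste neuron.

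In N2, 70 of 114 probes gave a signal above 0 on at least 1 array (61.4%), 49 on at least 4 arrays (43.0%) and 7 on every array (6.14%). The 7 were miR-1, miR-48, miR-63, miR-64, miR-65, miR-80 and miR-82. A further 8 gave a signal on 9 or 10 arrays, namely let-7, miR-52 and miR-84 on 10 and miR-53, miR-56, miR-58, miR-86 and miR-252 on 9. Another 34 probes had a signal on 4 to 8 arrays and 21 on 1 to 3. The remaining 44 probes (38.6%) had no N2 signal on any array. A signal of 0 says that the deposited scanner output held 0 for that probe, not that the microRNA was missing from the worms. The sources used here do not give how the scanner output came to be 0.

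The number of probes with an N2 signal differed about as much between arrays of 1 set as between sets. It was 36, 54 and 31 on the cat-1 arrays, 50, 53, 45 and 13 on the alpha-synuclein arrays, and 14, 22, 54 and 32 on the pdr-1 arrays. Both shallow arrays, alpha-synuclein replicate 4 and pdr-1 replicate 1, held no probe that was rare elsewhere. All 13 probes of the first and all 14 of the second also had an N2 signal on at least 6 of the other 10 arrays. On pdr-1 replicate 3, one of the deepest, this held for 31 of 54 probes (57.4%).

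**Figure D1:**
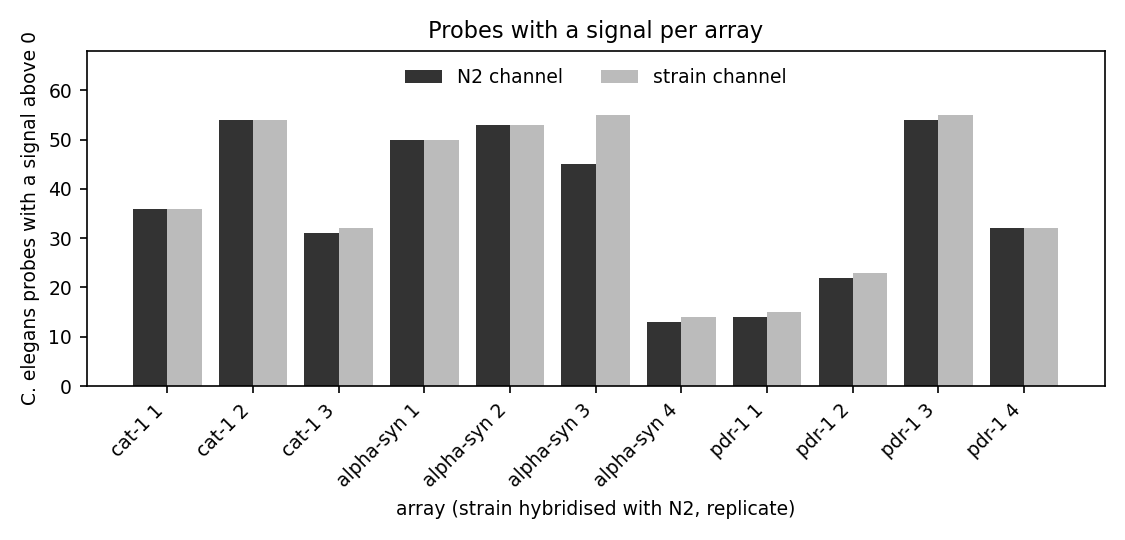
Number of C. elegans probes with a signal above 0 on each of the 11 distinct arrays, with the N2 channel in dark bars and the strain channel in light bars. N2 counts ran from 13 to 54, and the bars of a pair differed by more than 1 probe on alpha-synuclein replicate 3 alone (45 in N2 against 55 in the strain).

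The bar plot of probes per array shows the N2 and strain bars moving together. The summed N2 signal over the 342 spots, in mega-units (M) of scanner intensity, was 48.2, 88.0 and 74.2 M on the cat-1 arrays, 71.5, 97.2, 9.67 and 32.4 M on the alpha-synuclein arrays, and 31.0, 27.1, 59.2 and 52.1 M on the pdr-1 arrays. Alpha-synuclein replicate 3 thus held the lowest N2 sum and still 45 probes with a signal, while its strain channel held 336 M. The 10 brightest probes took 34.7% of the N2 signal on pdr-1 replicate 3, where 54 probes had a signal, and 96.1% on alpha-synuclein replicate 4, where 13 did.

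Across N2 arrays, a signal above 0 was frequent on C. elegans probes and rare on the controls. It was held by 868 of 3762 C. elegans spots (23.1%), 0 of 627 shuffled, 0 of 627 reversed and 4 of 1254 mutated control spots (0.319%), and 54 of 11649 blank spots (0.464%). The blank spots with a signal lay almost all on the cat-1 arrays, at 15, 18 and 18 spots, with 0 on the alpha-synuclein arrays and 3 on 1 pdr-1 array, replicate 2.

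The larval timing microRNAs were all seen in N2, and let-7 and its relatives more often than probes at large. The 4 let-7 family probes gave a signal in 38 of 44 probe and array pairs (86.4%), against 404 of 1254 over all probes (32.2%). let-7 itself, which represses lin-41 at the passage from larva to adult, was seen on 10 arrays, miR-48 on 11, miR-84 on 10 and miR-241 on 7. The last 3 act together earlier, in the passage from the second to the third larval stage, by repressing hbl-1. Together the family held between 7.77% and 24.0% of the summed N2 signal, with a median of 16.7%.

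The place of let-7 in the N2 order is given as its rank on each array, where rank 1 is the brightest of the 114 probes by mean signal over the 3 spots. A probe without a signal shares the tied last places of its array, and median ranks count these unless said otherwise. let-7 ranked 2, 10 and 22 on the cat-1 arrays. It ranked 4, 1 and 12 on alpha-synuclein replicates 1 to 3, with no signal on replicate 4. On the pdr-1 arrays it ranked 12, 3, 7 and 8. let-7 was thus among the 10 brightest on 7 arrays, with a median rank of 8, and its 1 absence fell on the array with the fewest probes.

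The other let-7 relatives lay close to it on many arrays. miR-48 ranked 14, 20 and 7 on the cat-1 arrays, 1, 8, 13 and 1 on the alpha-synuclein arrays and 4, 7, 16 and 10 on the pdr-1 arrays, with a median of 8. miR-84 ranked 1, 24 and 2 on the cat-1 arrays, 7, 4 and 29 on alpha-synuclein replicates 1 to 3 with no signal on replicate 4, and 11, 4, 20 and 19 on the pdr-1 arrays, with a median of 11. These ranges overlap throughout, so no order holds among let-7, miR-48 and miR-84. miR-241 varied most, from rank 1 on alpha-synuclein replicate 3 to no signal on 4 arrays, although its gene lies within 10 kb of that of miR-48 in the WBcel235 gene table. The neighbours miR-48 and miR-241 were alike in having or lacking a signal on 7 arrays. Such counts, here and below, were not set against those of all pairs of genes that are not neighbours.

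lin-4, which represses lin-14 and lin-28 in early larvae, was never among the 10 brightest N2 probes. It had a signal on 7 of 11 arrays, at ranks 34 and 48 on the cat-1 arrays, 18, 31 and 33 on the alpha-synuclein arrays and 14 and 45 on the pdr-1 arrays. Its mean signal was between 0.0141 and 0.533 M where it was seen, and its share of the summed N2 signal was 2.37% at most. miR-237, its relative with the same seed, had no signal on any array. Probes bind with unequal strength, so a rank compares signals and says nothing of the number of molecules.

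The embryonic miR-35 family, which is needed for embryos to develop, was rarely seen in N2 larvae. Of its 8 probes, miR-36, miR-38, miR-40 and miR-41 had no N2 signal on any array, miR-39 had one on 1 array, and miR-35, miR-37 and miR-42 had one on 2 arrays each. That is 7 of 88 probe and array pairs (7.95%), against 32.2% over all probes. The family's share of the summed N2 signal was 0 on 6 arrays, at most 0.826% on 4, and 5.21% on alpha-synuclein replicate 3. On that array miR-35 ranked 14, miR-39 ranked 21 and miR-37 ranked 45, in the channel with the lowest N2 sum. Except for miR-42, these genes lie together in the gene table, and miR-35 to miR-41 were alike in having or lacking a signal on 8 arrays.

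**Figure D2:**
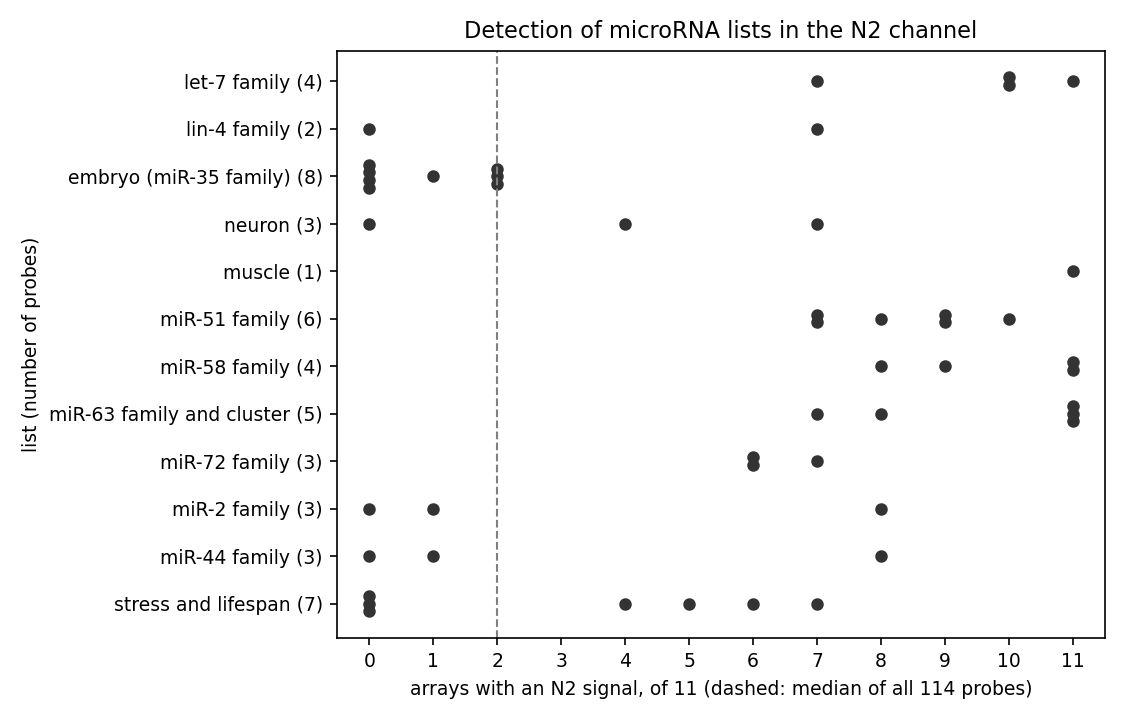
Number of arrays, of 11, on which each member of a microRNA list had an N2 signal, with 1 point per probe, points at the same value stacked and the number of probes in parentheses. The let-7, miR-58 and miR-63 lists lie at 7 arrays or more, the miR-35 family at 2 or fewer, and the dashed line marks the median of all 114 probes, 2 arrays.

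The plot of lists also shows other families with an N2 signal on more arrays than the median probe. The lists were chosen with earlier results of these data known, so their shares describe the listed probes only. The miR-58 family are worm relatives of the fly microRNA bantam that act on body size and TGF-beta signalling. The family gave a signal in 88.6% of probe and array pairs, against 32.2% over all probes. Its members miR-80 and miR-82 were seen on all 11 arrays, miR-58 on 9 and miR-81 on 8. The family held 10.04% to 20.1% of the summed N2 signal, with a median of 13.4%.

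Within that family, miR-80 was the most constant. It ranked 11, 12 and 5 on the cat-1 arrays, 6, 11, 3 and 3 on the alpha-synuclein arrays and 5, 11, 6 and 14 on the pdr-1 arrays, always within the first 14 places. miR-82 ranked 18, 7 and 4, then 5, 13, 32 and 4, then 6, 22, 13 and 9 on the same sets of arrays, with a median of 9. miR-58 ranged from rank 2 on pdr-1 replicate 2 to rank 44 on alpha-synuclein replicate 3, with no signal on both shallow arrays. miR-81 and its neighbouring gene miR-82 were alike in having or lacking a signal on 8 arrays, with miR-81 at a median rank of 23.

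The miR-63 list was made of miR-63 and the miR-229 and miR-64 to miR-66 cluster. It was seen in 87.3% of pairs, against 32.2% over all probes, and held 10.4% to 32.8% of the summed N2 signal. miR-63, miR-64 and miR-65 were seen on all 11 arrays, miR-66 on 8 and miR-229 on 7. miR-65 had, with miR-80, the lowest median rank of all probes, 6, where spots without a signal counted as 0. With those spots left out the medians were 12 for miR-65 and 11 for miR-80, behind miR-84 at 7, miR-56 at 8 and miR-64 at 9. miR-65 ranked 16, 18 and 1 on the cat-1 arrays, 3, 3, 15 and 6 on the alpha-synuclein arrays and 9, 5, 5 and 21 on the pdr-1 arrays.

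miR-64 had a median rank of 8, at 3, 19 and 8 on the cat-1 arrays, 8, 7, 19 and 2 on the alpha-synuclein arrays and 1, 15, 12 and 6 on the pdr-1 arrays. miR-63 was seen on every array, with a median rank of 20 and a range from 5 to 44. miR-66 had a median rank of 15 and miR-229 one of 46. Although the 4 genes of the cluster are neighbours, their probes ranged from a median rank of 6 to one of 46, and all 4 were alike in having or lacking a signal on 6 arrays.

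The miR-51 family, relatives of miR-100 of other animals that act in embryos and larvae, was seen with all 6 members in N2. miR-52 had a signal on 10 arrays, miR-53 and miR-56 on 9, miR-55 on 8 and miR-51 and miR-54 on 7. That is 75.8% of pairs, against 32.2% over all probes. The family held 10.3% to 19.7% of the summed N2 signal, with a median of 13.5%. miR-56 ranked 24, 1 and 23 on the cat-1 arrays, 9, 5, 10 and 7 on the alpha-synuclein arrays, and 2 and 3 on pdr-1 replicates 3 and 4, with no signal on the other two.

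miR-52 ranked 17, 15 and 6 on the cat-1 arrays, 13, 16 and 8 on alpha-synuclein replicates 1 to 3, and 3, 1, 15 and 5 on the pdr-1 arrays, with a median of 13. miR-53 ranked 12, 2 and 3 on the cat-1 arrays, 31, 36, 5 and 5 on the alpha-synuclein arrays, and 31 and 25 on pdr-1 replicates 3 and 4. The median ranks of miR-55, miR-54 and miR-51 were 23, 40 and 41, and 19.5, 36 and 23 over the arrays where each was seen. No order among miR-52, miR-53 and miR-56 held on all arrays.

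miR-1, the muscle microRNA, was the 1 probe with an N2 signal on all 3 spots of all 11 arrays. It ranked 7, 26 and 9 on the cat-1 arrays, 2, 22, 6 and 9 on the alpha-synuclein arrays and 2, 6, 19 and 11 on the pdr-1 arrays, with a median of 9. Its share of the summed N2 signal ran from 1.34% to 12.1%. The muscle of the body wall and pharynx makes up much of a larva, and miR-1 is known there from worms to mammals. The part of muscle in this signal was not tested.

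The 3 probes listed as neuronal were seen on unlike numbers of arrays in N2. lsy-6 had no signal on any array, and miR-124, which is made in sensory neurons, had one on 4 arrays at ranks from 26 to 49. miR-79, listed as a relative of the neuronal miR-9 of other animals, also acts in the worm epidermis and had a signal on 7 arrays. It ranked 4, 5 and 18 on the cat-1 arrays, 45 and 26 on 2 alpha-synuclein arrays, and 9 and 1 on pdr-1 replicates 2 and 4, with no signal on the other 4. A microRNA made in few cells and one with little RNA per cell cannot be told apart in RNA from whole larvae.

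Of the stress and lifespan microRNAs, 4 of 7 were seen in N2, against 70 of 114 over all probes (61.4%). miR-71, which lengthens life, had a signal on 7 arrays with a median rank of 30 where it was seen. miR-239a had a signal on 6 arrays, miR-34, which acts in stress responses and ageing, on 5, and miR-238 on 4. miR-239b, miR-246 and miR-253 had no N2 signal on any array. The list was seen in 28.6% of pairs, close to the 32.2% of all probes.

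The gene of miR-71 lies beside that of miR-2, a relative of the fly miR-2 family, and these neighbours were alike in having or lacking an N2 signal on 10 of 11 arrays. This likeness was not particular to neighbours. miR-72 and miR-241, which are not neighbours of miR-71, had a signal on the same arrays as miR-71 and on no others. miR-2 was seen on 8 arrays, with ranks from 4 on cat-1 replicate 2 and pdr-1 replicate 4 to 33 on alpha-synuclein replicate 2. Its list mates miR-43 and miR-250 were seen on 1 and 0 arrays. In the miR-44 list, the shared probe of miR-44 and miR-45 had a signal on 8 arrays with a median rank of 27, miR-247 on 1 and miR-61, which acts in vulval fate, on 0.

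Of the miR-72 family, relatives of miR-31 of other animals, the list held the 3 probes miR-72, miR-73 and miR-74. They were seen on 6 or 7 arrays each. Their share of the summed N2 signal ran from 0 to 8.54%, the highest on pdr-1 replicate 3, where miR-72 was the brightest probe. miR-73 and miR-74 were seen on 6 arrays each, and miR-75, the neighbour of both in the gene table, on 1. On alpha-synuclein replicate 4, pdr-1 replicate 1 and cat-1 replicate 1 the 3 listed probes had no signal.

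Among 21 other microRNAs listed as conserved, 20 had an N2 signal on at least 1 array and miR-62 had none. Over all probes it was 70 of 114 (61.4%). The list was seen in 45.9% of probe and array pairs, against 32.2% over all probes. It was chosen with earlier results of these data known. Its excess over all probes therefore says nothing of conserved microRNAs as a group. miR-86 and miR-252 were seen on 9 arrays each. miR-86 ranked 19, 3 and 12 on the cat-1 arrays, 10, 19, 7 and 8 on the alpha-synuclein arrays, and 3 and 2 on pdr-1 replicates 3 and 4. miR-252 ranged from rank 2 on alpha-synuclein replicate 3 to rank 43 on replicate 2, with a median of 14. miR-57, which limits a posterior Hox gene, and miR-87 were seen on 8 arrays. miR-83, a relative of miR-29, and miR-230 were seen on 7, miR-46, miR-70, miR-77 and miR-228 on 6, and miR-47, miR-50 and the gut microRNA miR-60 on 5. miR-90 and miR-236 were seen on 4, miR-67, miR-85 and miR-235 on 3, and miR-75 and miR-234 on 1.

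Detection in N2 also went with the number in a microRNA's name, which runs with the order of naming and falls into runs parted by wide gaps. Among probes numbered 1 to 124, 48 of 56 had an N2 signal on at least 1 array (85.7%). It was 19 of 46 for numbers 227 to 273 (41.3%) and 1 of 9 for 353 to 392 (11.1%). On at least 4 arrays, 37, 10 and 0 probes of these runs had a signal. The highest number with an N2 signal was miR-357, on cat-1 replicate 3 alone.

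**Figure D3:**
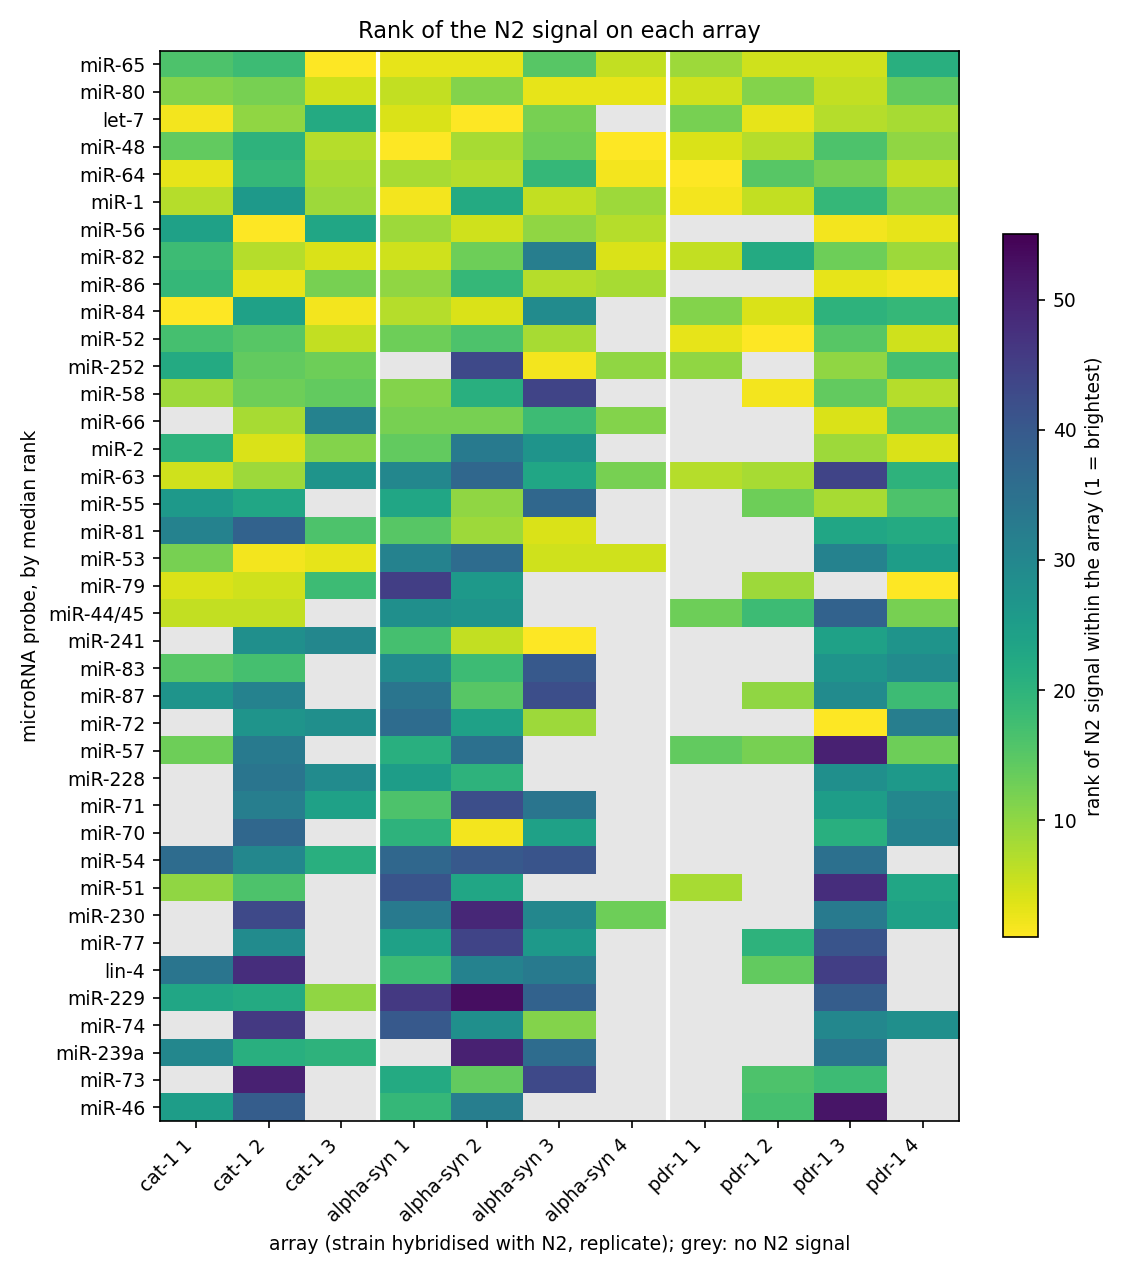
Rank of the N2 signal within each of the 11 distinct arrays (columns, in sets divided by white lines) for the probes with an N2 signal on at least 6 arrays (rows, by median rank over all arrays), with 1 the brightest and grey for no signal. The rows of miR-65, miR-80, miR-48, miR-64, miR-1, miR-82 and miR-63 have no grey cell, and no row keeps 1 colour throughout.

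The map of ranks shows that no microRNA led the N2 channel on all arrays. The brightest probe was miR-84, miR-56 and miR-65 on the cat-1 arrays, miR-48, let-7, miR-241 and miR-48 on the alpha-synuclein arrays, and miR-64, miR-52, miR-72 and miR-79 on the pdr-1 arrays, which makes 10 different probes on 11 arrays. Over all arrays 28 different probes entered the first 10 places, and 0 did so on every array. let-7, miR-1, miR-48, miR-56, miR-64 and miR-65 did so on 7 arrays each, and miR-80, miR-82 and miR-86 on 6.

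For the 7 probes seen on every array, the N2 signal can be set on a common log2 scale, centred on their own median within each array. The SD between arrays ran from 0.42 for miR-80 to 1.51 for miR-63, with a median of 0.64 over the 7. The SD between spots had a median of 0.36, but it could be taken only on arrays where all 3 spots had a signal, from 3 arrays for miR-63 to 11 for miR-1, while the SD between arrays counts spots without a signal as 0, so the spreads are not like for like. miR-80 stood at 0.24 ± 0.30 on the cat-1 arrays, 0.23 ± 0.31 on the alpha-synuclein arrays and -0.17 ± 0.53 on the pdr-1 arrays (log2, SD, n = 3, 4 and 4 arrays). miR-63 stood at -0.53 ± 2.55, -1.83 ± 1.14 and -0.71 ± 0.84 on the same sets. Both probes overlap between sets.

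**Figure D4:**
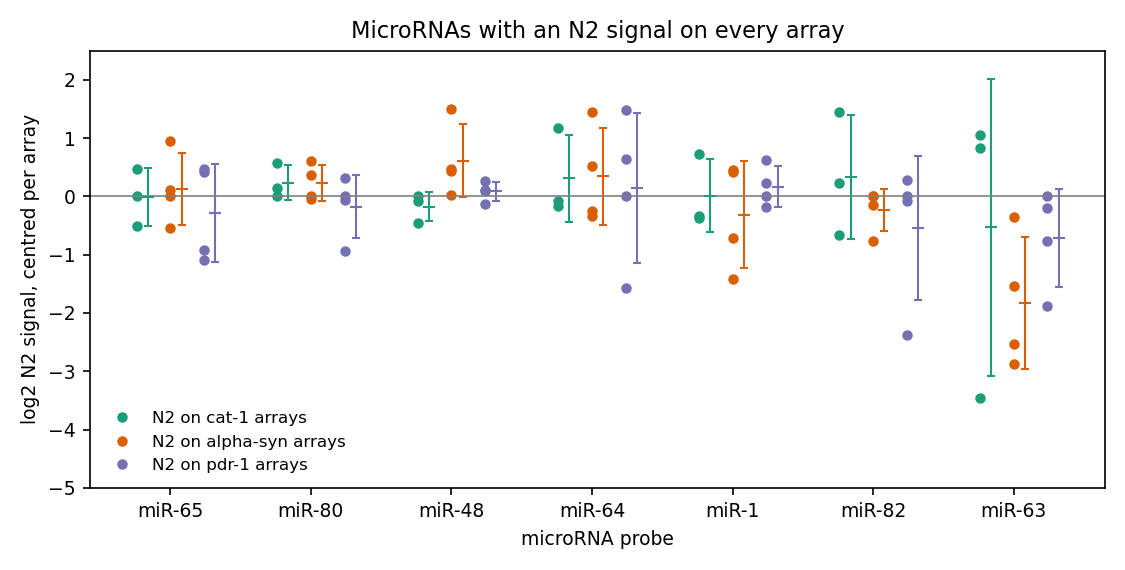
log2 N2 signal of the 7 microRNAs seen on every array, centred per array on the median of the 7, with 1 point per array and, beside the points, the mean and SD of each set (3 cat-1, 4 alpha-synuclein and 4 pdr-1 arrays). The points of miR-80 lie between -0.94 and 0.61 and those of miR-63 between -3.47 and 1.06.

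The plot of the 7 probes seen on every array shows sets that overlap for 6 of them. For miR-48 the set means were -0.18 ± 0.25, 0.61 ± 0.62 and 0.09 ± 0.17 on the cat-1, alpha-synuclein and pdr-1 arrays. Its cat-1 values of -0.46, -0.07 and 0.00 lay below all 4 alpha-synuclein values, of 0.44, 0.48, 0.03 and 1.49, while the fit across all probes described further on gave an adjusted p of 0.897 for this pair of sets (limma).

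Ranks of the N2 signal agreed only in part between arrays. Across the 114 probes, Spearman's rho between 2 arrays had a median of 0.597 over 55 pairs, from 0.333 to 0.888. It was 0.701 within the cat-1 set, 0.596 within the alpha-synuclein set, 0.602 within the pdr-1 set and 0.580 between sets. These values include probes with no signal, which tie at the end of the order, and over the probes with an N2 signal on both arrays the median was 0.297, from -0.321 to 0.706. These are correlations across probes, which are not independent replicates, and are given as a description.

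The N2 order was closer to the strain signal of the same array than to N2 elsewhere. Over probes with a signal in both channels, rho between N2 and strain on 1 array had a median of 0.741, from 0.317 to 0.982, against the median of 0.297 between N2 channels of different arrays. For 11 of 11 arrays the value with its own strain channel was above the median value with N2 on the other arrays, and for 7 of 11 it was above the highest. The narrowest gap was on alpha-synuclein replicate 3, at 0.317 with its strain channel and 0.295 with N2 elsewhere. The channels of 1 array share its slide, its hybridisation and its spots, and their part in this likeness was not tested.

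**Figure D5:**
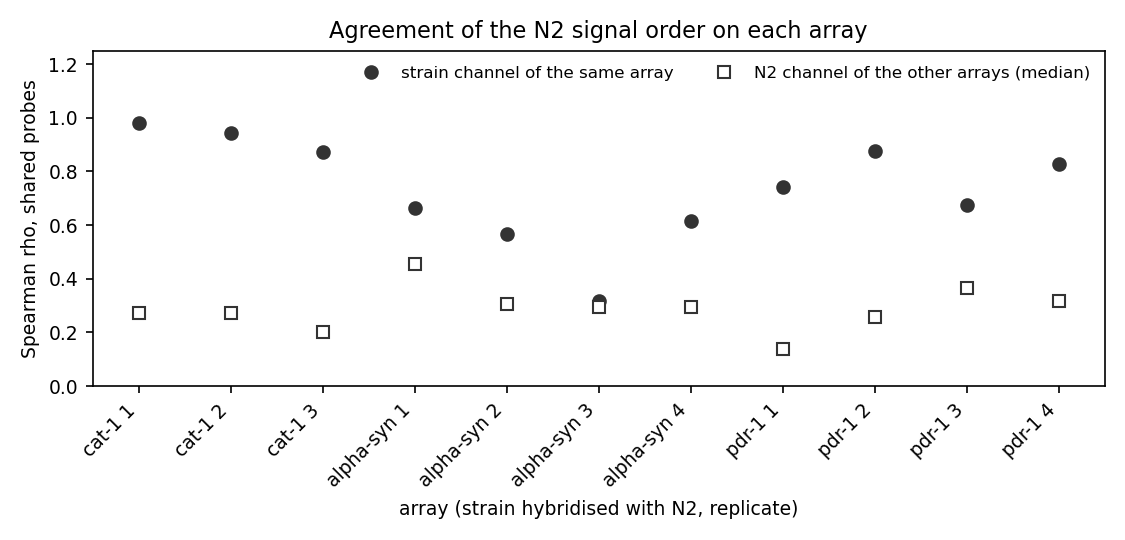
Spearman's rho of the N2 signal on each array with the strain channel of the same array (filled circles) and with the N2 channel of the other 10 arrays (open squares, median), over probes with a signal in both channels compared. All 11 circles lie above their squares, and the pair at alpha-synuclein replicate 3 nearly touches.

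The plot of agreement shows this array by array, and detection was likewise shared between the channels of 1 array. Of 868 spots with an N2 signal, 867 also had a strain signal and 1 did not, while 61 spots had a strain signal alone, 47 of them on alpha-synuclein replicate 3. At the level of probes the counts were 403 probe and array pairs with both signals, 1 with N2 alone and 16 with the strain alone. miR-40, miR-78, miR-246 and miR-265 had a strain signal on at least 1 array and no N2 signal on any.

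The N2 channel nonetheless held slightly fewer probes than the strain channel. The mean was 36.7 ± 15.7 probes in N2 and 38.1 ± 16.2 in the strain (SD, n = 11 arrays), a difference of -1.36 ± 2.91 probes. N2 was lower on 6 arrays, equal on 5 and higher on 0 (exact two-sided sign-flip permutation test, p = 0.0312). The count was 45 against 55 on alpha-synuclein replicate 3 and differed by 1 on the other 5. Without that array the difference was -0.50 (exact p = 0.0625), and without any 1 of cat-1 replicate 3, alpha-synuclein replicate 4 and pdr-1 replicates 1, 2 and 3 it was -1.4 (exact p = 0.0625 each), so the call rests on all 6 arrays. Within the cat-1, alpha-synuclein and pdr-1 sets it was -0.333, -2.75 and -0.75, with exact p-values of 1, 0.5 and 0.25, where such small sets cannot reach 0.05. The summed signal was lower in N2 on 10 of 11 arrays, all but alpha-synuclein replicate 1, and thus also on most arrays with equal counts. On alpha-synuclein replicate 2 it was 97.2 M in N2 against 278 M in the strain, with 53 probes in each. The part of brightness in the count was not tested.

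Since the same wild type was hybridised in every set, the sets were also compared for N2 alone. The number of probes with an N2 signal was 40.3 ± 12.1 on the cat-1 arrays, 40.2 ± 18.5 on the alpha-synuclein arrays and 30.5 ± 17.3 on the pdr-1 arrays (SD, n = 3, 4 and 4). The differences between set means were smaller than these SDs. With so few arrays per set, no adjusted p of the tests below could fall under 0.05, so they cannot tell whether the sets differed. By exact two-sided permutation tests with Benjamini-Hochberg adjustment over 3 comparisons, the difference was 9.75 for alpha-synuclein and pdr-1 (adjusted p = 0.771), 9.83 for cat-1 and pdr-1 (adjusted p = 0.771) and 0.0833 for cat-1 and alpha-synuclein (adjusted p = 0.971).

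No N2 signal differed between sets by limma with Benjamini-Hochberg adjustment at 0.05, on the centred log2 scale. It was 0 of 47 probes between the alpha-synuclein and pdr-1 arrays (0%), 0 of 46 between the cat-1 and pdr-1 arrays (0%) and 0 of 48 between the cat-1 and alpha-synuclein arrays (0%). At an unadjusted p under 0.05 the counts were 1, 1 and 7. All probes shared 1 SD of 1.24 on the log2 scale, and arrays without a signal for a probe were missing from its fit. At least 3 arrays in both sets stood behind 14, 12 and 19 of these tests, in the same order of contrasts. A set was down to 1 array in 10, 15 and 12 of them, and both sets were in 7 of the cat-1 and pdr-1 tests, where the lone array was assumed to vary like the others. These counts therefore do not show that the sets were alike.

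The first by p between the alpha-synuclein and pdr-1 arrays was miR-79, with a log2 difference of -3.47 ± 1.24 SE (adjusted p = 0.266 by limma), measured on 2 arrays of each set. It was followed by miR-124 at -2.29, from 2 alpha-synuclein arrays and a single pdr-1 array, and miR-58 at -1.48 ± 1.01 SE on 3 arrays of each set (adjusted p = 0.892 for each). Between the cat-1 and pdr-1 arrays the first were the miR-44 and miR-45 probe at 2.47 ± 1.08 SE, miR-56 at -1.90 and lin-4 at -2.0, each with an adjusted p of 0.864. Between the cat-1 and alpha-synuclein arrays they were miR-79 at 2.90 ± 1.13 SE, lin-4 at -2.62 and miR-81 at -2.30, each with an adjusted p of 0.286. The differences named in the cat-1 contrasts rested on 2 to 4 arrays per set. Without cat-1 replicate 2, miR-56 and miR-66 passed between the cat-1 and pdr-1 arrays, and lin-4, miR-66 and miR-241 between the cat-1 and alpha-synuclein arrays, with adjusted p-values of 0.0271 to 0.0337, where all but miR-56 rested on a single cat-1 array. miR-79 passed in that last contrast without cat-1 replicate 3 (adjusted p = 0.0446).

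The N2 channel differed between sets most plainly in 2 probes that were chosen after their values were seen. miR-254 and miR-266 had an N2 signal on all 3 cat-1 arrays and on none of the other 8 (2 of 114 probes, 1.75%). miR-254 ranked 29, 45 and 26 and miR-266 ranked 8, 11 and 25, with a signal on 3, 3 and 1 of their spots. The strain channel held a signal for both on the same 3 arrays and on no other. The cat-1 arrays also had a signal on blank spots, which 1 other array, pdr-1 replicate 2, had on 3 spots without a signal for miR-254 or miR-266. The blank spots of the cat-1 arrays were at a median of 0.723, 0.608 and 1.43 M, against 0.377, 0.499 and 0.950 M over their C. elegans spots with a signal. The part of these blank spots in the pattern was not tested. In all, 8 probes had an N2 signal on cat-1 arrays alone, 4 on alpha-synuclein arrays alone and 1, miR-234, on a pdr-1 array alone.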

How the data were processed

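Labelled small RNA of synchronized larvae was hybridised to 2-colour NCode arrays, per the labels' protocols. The deposited scanner files give 1 signal intensity and 1 flag letter per channel and spot, per the file headers. The sources used here do not give how background was removed, what the flags mean or which scanner letter is which dye. Signal A was taken as N2, which the labels name as the first channel, and intensities were used as deposited, with all flags kept. The authors' deposited table of log2 ratios served only as a check: it equalled log2 of signal B over signal A on 10 arrays up to a constant, but not on alpha-synuclein replicate 2 (r = 0.721). The table holds 0 further columns of per-sample values.

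Detection was a signal above 0 on any spot. Spots of a probe were averaged, zeros included, and probes ranked within arrays with ties averaged. For tests between array sets, log2 of the mean signal (missing at 0) was centred on the median of the 7 probes seen on every array. Probes seen on 4 arrays or more were fitted with limma 3.58.1 in R 4.3.3, with 1 mean per set. The fit was also run on simulated data with less spread than these data, which does not give its power here. Permutation tests used scipy 1.17.1 in Python 3.11.15. Named microRNAs were all probes seen on every array, the 20 with the lowest median rank, members of the lists, and the first 3 by p per contrast. The members and lists were chosen with earlier results of these data known. Of 114 probe names, 108 matched the WBcel235 gene table, used for names and neighbours within 10 kb. No microRNA sequences were used here. Replicate numbers did not pair the arrays. Alternatives concerned spots required, averaging, flags, centring, normalization, filters, the replicate block, the repeated file and each array left out.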

Additional observations from a re-analysis of the deposited data

Results flagged for a closer look

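In 52 groups of 4 N2 values, 3 held an array far from the other 3, and chance alone sets 1 in about 20 such groups apart. miR-66 ranked 18 on alpha-synuclein replicate 3, against 12, 12 and 11 on the other arrays of that set. miR-57 ranked 50 on pdr-1 replicate 3, against 14, 12 and 13 on the others. miR-82 stood at -2.39 on the centred log2 scale on pdr-1 replicate 2, against -0.08, 0.00 and 0.29 on the others, with a signal on 1 of its 3 spots there.

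Probes named by a number, which no comparison used, held an N2 signal on 580 of 30987 spots (1.87%), above the 0.464% of blank spots. Of 939 such probes, 85 had an N2 signal on at least 1 array, 27 on at least 4 and 3 on every array. The sources used here do not give what they target.

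The column of the repeated cat-1 file in the authors' deposited table held 68 ratios. Of these, 39 lay on spots with a ratio in the scanner file, where the 2 correlated at 0.597, while 10 other columns matched theirs up to a constant.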

How the results depend on the processing

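The 70 probes seen on any array became 59 when a signal on 2 spots was required and 49 when all spots were. The 7 seen on every array became 3 (miR-1, miR-48 and miR-64) and 1 (miR-1) under the same requirements, and 11 without both arrays with the fewest probes, a choice made after seeing the data. Without the 3 cat-1 arrays, also chosen after seeing the data, 62 probes were seen on any array and 7 on all 8. The median number of probes per array, 36, became 11 with all spots required. The median rho between arrays was 0.297 over probes seen on both arrays. The difference of N2 and strain in probes was -1.5 to -0.5 with 1 array left out, with p = 0.0312 to 0.0625 (exact), and p was above 0.05 without cat-1 replicate 3, alpha-synuclein replicates 3 and 4 or pdr-1 replicates 1, 2 and 3. Within the cat-1, alpha-synuclein and pdr-1 sets it was -0.333, -2.75 and -0.75. The difference between the cat-1 and alpha-synuclein sets in N2 probes, 0.0833, ranged from -9 to 4.75 with 1 array left out. The tests of that difference had too few arrays to pass at 0.05.

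Calls between sets ranged from 0 to 2 (cat-1 and pdr-1) and 0 to 3 (cat-1 and alpha-synuclein) with 1 array left out, where a lone array of a set is assumed to vary like the others, and were 0 under each other alternative. Fitted on ranks within the array, from 0 to 1, the miR-124 difference of alpha-synuclein and pdr-1 turned to 0.0343, and those of miR-44 and miR-45 and of miR-56 between cat-1 and pdr-1 to -0.0715 and 0.164, and the cause was not tested. Arrays with the same replicate number did not deviate together: the correlation between sets had a median of -0.021 over 10 pairs, with 2 above 0.1, and with the replicate block 0 probes passed in each contrast. Median ranks moved by more than 1 SD for 8 of 58 named microRNAs with the median over spots, including miR-66 (62, not 15). They did so for 21 with arrays without a signal left out. With spots without a signal left out 1 moved, miR-80 (11 in place of 6), and miR-84 at 7 had the lowest median rank.

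The number of arrays and the few probes with a signal on all spots limit every value.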
